A study of Arundo donax with 9 samples.

Results

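Homeobox-leucine zipper (HD-Zip) transcription factors of the giant reed leaf are described here at 3 salt levels. The members are the assembled unigenes whose best Swiss-Prot hit is described as a homeobox-leucine zipper protein, and they number 244 of the 255855 unigenes listed, 100389 of which carry a Swiss-Prot description. They fall under 38 of 14153 protein names, since several unigenes share a best hit, and each name is that of a rice (HOX or ROC) or Arabidopsis (ATHB-8) protein rather than of a giant reed gene. Unigenes under 1 name can be alleles, copies or fragments of 1 gene, and the counting tool had to divide reads between near-identical ones, so values of single unigenes are less certain than the sums over a name. Reads may also have been divided between similar unigenes under different names, which the sums do not remove.

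The study grew Arundo donax, a clonally propagated perennial grass, in pots irrigated weekly and took fully expanded, non-senescing leaves. All plants belonged to 1 clone, G2. The groups were G2-CK (no NaCl, 0 mM), G2-S3 (severe stress, 250 mM NaCl) and G2-S4 (extreme stress, 420 mM NaCl), with 3 libraries each from separate pots. The results describe 1 genotype and whole leaves, in which fewer cells of a type and less RNA per cell cannot be told apart.

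HD-Zip proteins occur only in the plant lineage and join a DNA-binding homeodomain to a leucine zipper through which they pair. In class I several members respond to abscisic acid, drought or salt. Class II acts in auxin and shade responses, and class III in the upper face of the leaf, the meristem and the vascular strand, under control of a conserved microRNA. Class IV is expressed mainly in the epidermis, where it acts on epidermal identity, hairs and cuticle, and its rice members are called ROC for rice outermost cell-specific.

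Class I held 83 unigenes under 13 names, class II 38 under 10, class III 51 under 6 and class IV 72 under 9. The protein domains deposited beside the names, which the choice of members did not use, were read against these classes. Domains and names were assigned from the same sequences, so the domains are no independent check. A MEKHLA domain was looked for as well and was entered for 0 of the 244 members, those of class III included. A START domain, known from classes III and IV, was entered for 13 unigenes of class III and 24 of class IV, and for 0 of class I and 0 of class II. The N-terminal HD-ZIP domain was entered for 10 unigenes, all of class II. A homeobox was entered for 84 members and an HD-associated leucine zipper for 64, whereas 94 carried no Pfam domain. The median length was 873.5 bp (range 215 to 4477 bp), and the best hit in the Nr protein database was also named homeobox-leucine zipper for 165 of 244.

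The total of each library behind its FPKM (fragments scaled to unigene length and library size) was estimated from the deposited counts and FPKM. It was 23.01 to 25.69 M reads, which is not the number of reads sequenced. Each list ended at 0.3 FPKM, so that a unigene missing from a list lies anywhere from 0 to that level. Of the 244 members, 147 were listed in all 9 libraries and 11 in 1 library, and 177 passed the low-count filter and were tested. Over all unigenes G2-S3 replicate 3 stood apart from its group, at a root mean square distance of 0.657 and 0.707 on the log2 CPM scale (counts scaled to library size) from the other G2-S3 libraries, which were 0.574 from each other. Replicate 3 lay 0.685 to 0.7 from the G2-CK libraries, against 0.767 to 0.843 for G2-S3 replicates 1 and 2. Results at 250 mM are also given without replicate 3 where it bears on them. Such results keep the G2-S3 libraries that lie farther from G2-CK. Markers of leaf mesophyll (chlorophyll a-b binding proteins, Rubisco small subunit) were abundant in all 9 libraries, with sums of 5720 to 6600 CPM in G2-CK, 4630 to 5060 CPM in G2-S3 and 1870 to 2270 CPM in G2-S4. Of 16 tested mesophyll names, 11 were lower and 1 was higher in G2-S4 than in G2-CK, where 20.0% of all names tested were lower and 31.6% higher. Markers of vascular secondary walls (cellulose synthases 4, 7 and 9) summed to 107 and 161 CPM in G2-S3 replicates 1 and 2, to 4.85 CPM in replicate 3 and to 3.62 to 8.07 CPM in the other 6 libraries. The senescence markers differed in direction, as STAY-GREEN averaged 136, 89.7 and 569 CPM and the protease SAG39 2730, 1230 and 364 CPM in G2-CK, G2-S3 and G2-S4. A list for dividing tissue (knotted-1-like genes, B-type cyclins, MCM proteins) summed to 486 to 492, 540 to 562 and 465 to 500 CPM in the same order. Its parts differed in level. Knotted-1-like 2 alone averaged 220, 233 and 197 CPM and cyclin B1-2 72.3, 78.1 and 76 CPM. Each MCM name averaged at most 2.5 CPM in any group, so the sum is no measure of dividing cells.

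Summed over the 244 members, the family had 1130 ± 83.3 CPM in G2-CK, 1060 ± 62.2 CPM in G2-S3 and 1090 ± 14 CPM in G2-S4 (SD, n = 3 each), and the ranges of the groups overlapped. Summed FPKM, which gives short unigenes more weight, was 1740 ± 133, 1570 ± 90.8 and 1530 ± 49 in the same order, and here every G2-S4 library lay below every G2-CK library. Without the 35 unigenes under 400 bp the sums were 1380 ± 90.7, 1270 ± 85 and 1290 ± 11.9, and the groups overlapped. Class I had the largest share, 54.9% of the family's CPM in G2-CK, and its sum was 619 ± 47 CPM in G2-CK, 624 ± 13 CPM in G2-S3 and 623 ± 15.2 CPM in G2-S4. Class II was the smallest, with 5.67% in G2-CK and sums of 63.9 ± 4.67, 58.1 ± 4.83 and 58.5 ± 10.3 CPM in G2-CK, G2-S3 and G2-S4. In both of these classes all groups overlapped on the CPM scale. Class III had 146 ± 6.25, 121 ± 4.73 and 145 ± 9.94 CPM, and every G2-S3 library lay below every library of the other groups. Class IV had 298 ± 36.6, 255 ± 59 and 268 ± 14.9 CPM, and here the 3 G2-S3 libraries did not agree, with 220 and 221 CPM in replicates 1 and 2 against 323 CPM in replicate 3. By FPKM, classes III and IV were both lower in G2-S4 than in G2-CK without overlap, with 238 ± 8.77 in G2-S4 and 307 ± 25.1 in G2-CK for class III, and 259 ± 24.8 in G2-S4 and 372 ± 33.5 in G2-CK for class IV. Without unigenes under 400 bp the sums were 162 ± 11.7 in G2-S4 and 182 ± 13.1 in G2-CK for class III, where the highest G2-S4 and the lowest G2-CK library were both at 170 FPKM, and 230 ± 18.3 in G2-S4 and 322 ± 32.6 in G2-CK for class IV. These sums were not tested.

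Reads grow with length, so different names are set side by side by summed FPKM, where a class I name led the family in control leaves. A gene split into several fragments adds its level once for each fragment, so this scale can overstate names with many unigenes. HOX16 (11 unigenes) had 501 FPKM and 277 CPM in G2-CK, and HOX5 (11 unigenes) had 153 FPKM and 166 CPM. HOX16 held 28.7% of the family's FPKM in G2-CK, followed by HOX5 (class I) with 8.75%, ROC2 (class IV) with 7.93%, HOX9 (class III) with 7.4% and HOX4 (class I) with 6.81%. This order depends on short unigenes, whose FPKM rests on few reads. HOX9 had 70.8% of its FPKM in G2-CK from unigenes under 400 bp (a limit chosen after the values were seen), among them one with 3 to 5 reads and 22.9 to 47.4 FPKM in the 3 libraries, and HOX5 had 31.6% from such unigenes. Without them HOX16 held 28.0%, ROC2 9.32%, HOX4 8.6% and HOX5 7.52%, and HOX9 took place 11 with 2.72%. At the other end, 8 names (HOX2, HOX21, HOX17, ROC8, HOX3, HOX26, HOX12 and HOX23) held 0.108% or less each. Single unigenes had less weight, as the leading unigene, a HOX5 copy of 1986 bp (Cluster-14027.158462), held 8.25% of the family's reads in G2-CK and the first 10 unigenes 42.2%. Among the 30 names averaging 1 CPM or more over the 9 libraries, the SD over the 3 G2-CK libraries had a median of 11.8% of the mean, with 1.43% for HOX9 as the lowest and 43.8% for ROC4 as the highest.

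In extreme salt, 75 of the 177 tested unigenes differed from G2-CK (42.4%, edgeR quasi-likelihood test, Benjamini-Hochberg adjusted p under 0.05 over all 127554 unigenes tested), against 28.0% of all unigenes tested. Of these, 36 were higher and 39 lower (29 to 35 and 23 to 32 when 1 library was left out, with 23 lower without G2-S4 replicate 2), and the median log2 fold change was -0.17 over the 177 members and -0.03 over all unigenes. With reads summed by name, 21 of 32 tested names differed (65.6%, adjusted over 12242 names), 12 higher and 9 lower, against 51.6% of all names (31.6% higher and 20.0% lower). In severe salt, 23 unigenes differed from G2-CK (13.0%, 15 higher and 8 lower), against 5.73% of all unigenes (3.4% higher and 2.33% lower). By name, 8 differed (25.0%, 4 higher and 4 lower), against 15.9% of all names (10.4% and 5.51%). Between G2-S4 and G2-S3, 36 unigenes differed (20.3%, 23 higher and 13 lower), against 14.1% of all (7.23% higher and 6.88% lower), and 14 names (43.8%, 10 higher and 4 lower), against 34.6% of all (20.6% and 14.0%). The lower unigenes between the doses were 6 to 8 without G2-S3 replicate 3 or any 1 of the G2-S4 libraries, and the lower names were 2 without G2-S3 replicate 1, G2-S3 replicate 2 or G2-S4 replicate 1. The counts at 250 mM rested on single libraries. Without G2-S3 replicate 3 the unigenes called were 31. Leaving out G2-S3 replicate 1 gave 7 unigenes and 5 names, and leaving out G2-S3 replicate 2 gave 11 unigenes. Of the control libraries, replicate 1 left 10 unigenes when dropped, replicate 2 left 8 and replicate 3 left 7.

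The calls were then counted by class. In G2-S4 against G2-CK, class I had 25 unigenes higher and 10 lower of 65 tested, class II 4 higher and 8 lower of 22, class III 6 higher and 10 lower of 39, and class IV 1 higher and 11 lower of 51, where 14.2% of all unigenes tested were higher and 13.8% lower. The median log2 fold change was 0.36 in class I, -0.6 in class II, -0.28 in class III and -0.4 in class IV. In G2-S3 against G2-CK, class I had 13 higher and 2 lower of 65 tested, class II 1 higher and 0 lower of 22, class III 0 higher and 3 lower of 39, and class IV 1 higher and 3 lower of 51, where 3.4% of all unigenes were higher and 2.33% lower. Leaving out 1 library moved the totals at 250 mM to 5 to 17 higher and 2 to 14 lower. These counts describe the classes, and the difference between classes was not tested. The 3 comparisons share libraries, so that their values are not independent of each other.

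**Figure D1:**
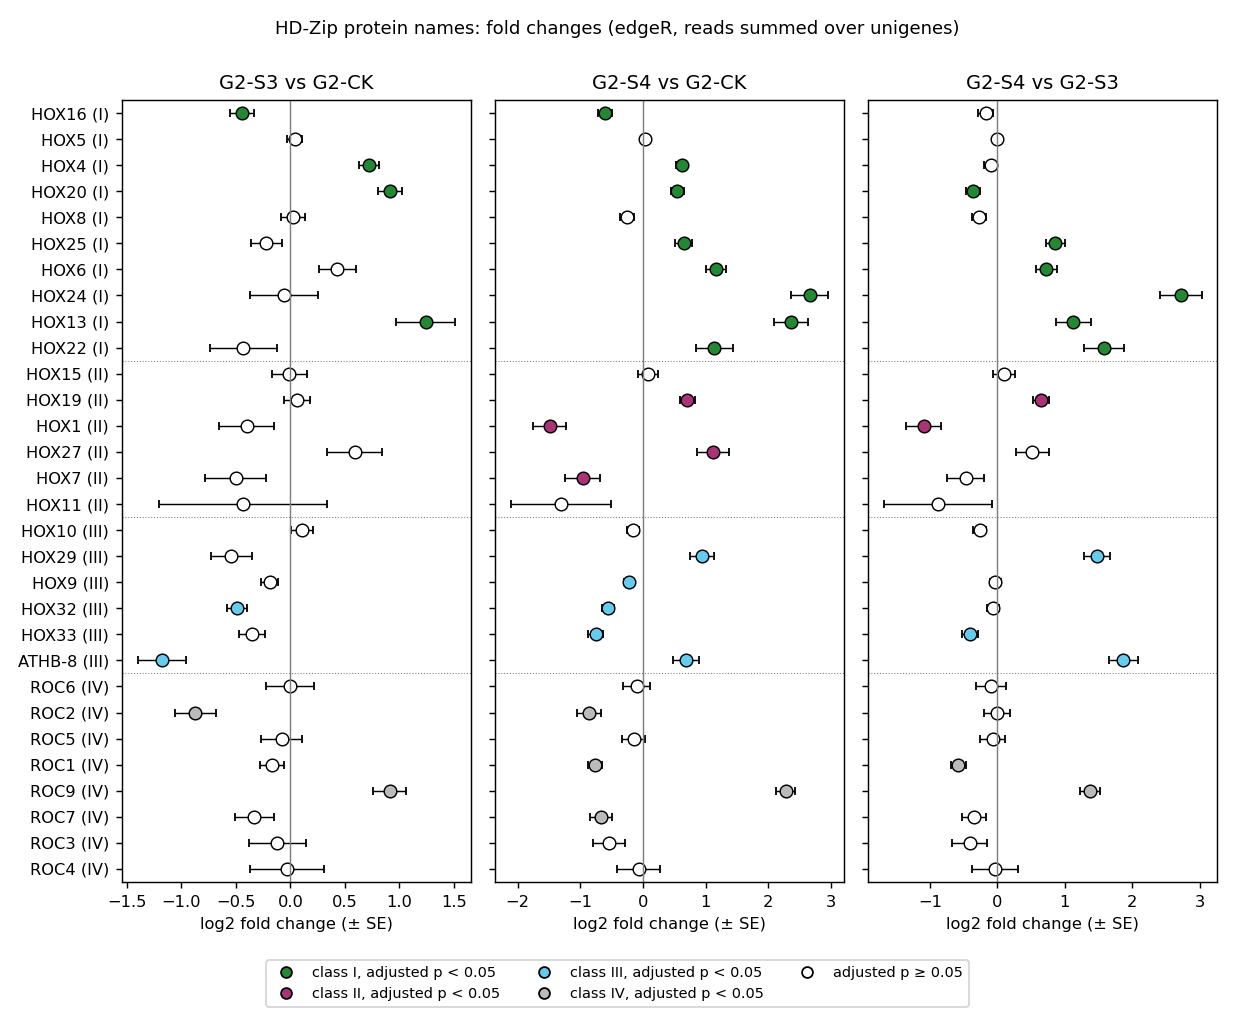
Log2 fold changes (x axes, ± SE from the edgeR fit over 9 libraries) of the 30 HD-Zip protein names averaging 1 CPM or more, with G2-S3 over G2-CK in the left panel, G2-S4 over G2-CK in the middle and G2-S4 over G2-S3 on the right, and names ordered by class and by mean CPM within a class. Filled points have an adjusted p under 0.05 over all protein names. HOX24, HOX13 and ROC9 lie farthest to the right in the middle panel (2.66, 2.36 and 2.28) and HOX1 farthest to the left (-1.49).

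In class I the largest increases belonged to HOX24 and HOX13, and HOX6 and HOX22 rose with them in extreme salt. Rice HOX6, HOX22 and HOX24 belong to a subgroup of class I whose members, with their Arabidopsis relatives, are known for induction by drought and abscisic acid. HOX24 had 2.73, 2.73 and 3.04 CPM in G2-CK, 2.38, 1.94 and 3.83 CPM in G2-S3, and 15, 25.4 and 13.4 CPM in G2-S4. All G2-S4 libraries lay above all others, and G2-S3 overlapped with G2-CK. The name was 6.33-fold higher in G2-S4 than in G2-CK (log2 fold change 2.66 ± 0.3, adjusted p = 0.000133) and 6.6-fold higher than in G2-S3 (2.72 ± 0.31, adjusted p = 0.00033). These values rest on 313 to 554 reads per library in G2-S4 and 69 to 74 reads per library in G2-CK.

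Both HOX24 unigenes rose. The shorter one, of 549 bp (Cluster-14027.174423), had 8.21, 18.5 and 8.77 CPM in G2-S4, against 2.14, 2.2 and 2.05 CPM in G2-CK, a log2 fold change of 2.47 ± 0.32 (adjusted p = 0.0003). The other, of 912 bp (Cluster-14027.16902), had 6.79, 6.98 and 4.62 CPM in G2-S4, against 0.594, 0.523 and 0.985 CPM in G2-CK (3.12 ± 0.41, adjusted p = 0.000312). The second copy was missing from the lists of G2-S3 replicates 1 and 2 and had 0.666 CPM in replicate 3, so its difference between G2-S4 and G2-S3 (4.11 ± 0.45, adjusted p = 0.00031) is set against values partly at the limit of the lists.

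HOX22 had 1.99, 2.35 and 2.83 CPM in G2-CK, 1.66, 1.64 and 2 CPM in G2-S3, and 3.71, 4.36 and 7.74 CPM in G2-S4. Its level at 420 mM was above every library of the other groups, at 2.21-fold of G2-CK (1.14 ± 0.3, adjusted p = 0.0104) and 2.98-fold of G2-S3 (1.58 ± 0.3, adjusted p = 0.00433). G2-S3 and G2-CK did not differ at the threshold (-0.43 ± 0.31, adjusted p = 0.367). Of its 3 tested unigenes, 2 rose in G2-S4 against G2-CK, while a copy of 903 bp (Cluster-14027.72445) had 0.56 ± 0.45 (adjusted p = 0.39). Between G2-S4 and G2-S3 that copy differed by 1.93 ± 0.49 (adjusted p = 0.0256), with 1.04, 1.74 and 4.16 CPM in G2-S4 and 0.385, 0.568 and 0.812 CPM in G2-S3, a call that was lost in 5 of 12 alternatives, among them leaving out G2-S3 replicate 1, G2-S3 replicate 2 or G2-S4 replicate 3.

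HOX6 averaged 9.69 ± 1.06 CPM in G2-CK, 13 ± 3.1 CPM in G2-S3 and 21.6 ± 0.503 CPM in G2-S4 (SD, n = 3 each). G2-S4 exceeded G2-CK 2.23-fold (1.16 ± 0.16, adjusted p = 0.00044) and G2-S3 1.66-fold (0.73 ± 0.16, adjusted p = 0.00834). At 250 mM the value of HOX6 was 0.43 ± 0.17 (adjusted p = 0.11), and it passed the threshold only when G2-S3 replicate 3, the lowest library of its group with 10 CPM, was left out (0.58, adjusted p = 0.0153).

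HOX13 increased at both doses. It had 2.73, 1.46 and 2.63 CPM in G2-CK, 6.75, 5.13 and 4.16 CPM in G2-S3, and 9.69, 12.1 and 13.3 CPM in G2-S4, and no 2 groups overlapped. It was 2.36-fold higher in G2-S3 than in G2-CK (1.24 ± 0.27, adjusted p = 0.018), 5.15-fold higher in G2-S4 than in G2-CK (2.36 ± 0.27, adjusted p = 0.000136) and 2.19-fold higher in G2-S4 than in G2-S3 (1.13 ± 0.26, adjusted p = 0.00898). The call at 250 mM was lost without G2-CK replicate 2 and without G2-S3 replicate 1. All 5 of its unigenes rose in G2-S4 against G2-CK, by log2 fold changes of 1.84 to 3.54. The largest belonged to a copy of 834 bp (Cluster-14027.15858), with 2.46, 2.3 and 3.16 CPM in G2-S4, against 0.317 and 0.205 CPM in G2-CK replicates 1 and 3 and no listed value in replicate 2. A copy of 856 bp (Cluster-14027.16606) was called at 250 mM as well (1.41 ± 0.36, adjusted p = 0.049), but that call was lost in 9 of 12 alternatives.

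HOX4 and HOX20 formed a second pattern, with the full increase already at 250 mM. Some of their unigenes have neighbouring numbers in the assembly (Cluster-14027.166233 and Cluster-14027.166232), and whether the 2 names share reads was not tested. In rice HOX4 is known for a role in gibberellin responses and plant height. HOX4 had 54.9, 59.6 and 63.1 CPM in G2-CK, 102, 103 and 87.3 CPM in G2-S3, and 89.4, 84.8 and 97.9 CPM in G2-S4. Both salt groups lay above G2-CK and overlapped with each other. The increase was 1.64-fold in G2-S3 (0.72 ± 0.09, adjusted p = 0.00258) and 1.53-fold in G2-S4 (0.62 ± 0.09, adjusted p = 0.000575), and the 2 doses differed by -0.1 ± 0.09 (adjusted p = 0.437). Of 10 HOX4 unigenes, 5 rose in G2-S3 and 6 in G2-S4 and none fell at either dose. The largest in G2-S3 was a copy of 753 bp (Cluster-14027.98778), which had 5.5, 6.1 and 5.58 CPM in G2-S3, against 1.64, 1.86 and 1.8 CPM in G2-CK (1.7 ± 0.17, adjusted p = 0.00102). A copy of 1482 bp (Cluster-14027.151027) had 2.55, 1.55 and 2.05 CPM in G2-S3, against 0.681, 0.855 and 0.397 CPM in G2-CK (1.65 ± 0.32, adjusted p = 0.0162), and lost the call without G2-CK replicate 1, G2-CK replicate 3 or G2-S3 replicate 1.

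HOX20 was higher in the severe than in the extreme group. It had 35.4, 35.3 and 38.9 CPM in G2-CK, 70.8, 68.4 and 66.8 CPM in G2-S3, and 44.3, 56.5 and 59.6 CPM in G2-S4, so that the 3 groups did not overlap. The increase over G2-CK was 1.88-fold in G2-S3 (0.91 ± 0.11, adjusted p = 0.00184) and 1.46-fold in G2-S4 (0.55 ± 0.11, adjusted p = 0.00253). HOX20 was the only one of the 30 names that was called higher at both doses and lower in G2-S4 than in G2-S3 (-0.36 ± 0.11, adjusted p = 0.0282), and this last call was lost without G2-S3 replicate 1, G2-S3 replicate 2 or G2-S4 replicate 1.

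The most abundant name moved the other way. HOX16 had 321, 244 and 266 CPM in G2-CK, 187, 211 and 215 CPM in G2-S3, and 198, 178 and 169 CPM in G2-S4. Every salt library lay below every control library. HOX16 fell 1.52-fold in G2-S4 (-0.61 ± 0.11, adjusted p = 0.00198) and 1.36-fold in G2-S3 (-0.44 ± 0.11, adjusted p = 0.0321). The call at 250 mM was lost with the replicate block and without G2-CK replicate 1, G2-CK replicate 3, G2-S3 replicate 1 or G2-S3 replicate 2. Of its 10 tested unigenes, 6 fell in G2-S4 against G2-CK and none rose. Its summed FPKM was 501 ± 65.2 in G2-CK, 350 ± 32.1 in G2-S3 and 299 ± 27.5 in G2-S4 (SD, n = 3 each), which was the highest summed FPKM of the family in each group.

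HOX25 rose in extreme salt only, with 34.2 ± 2.6 CPM in G2-S4, against 21.8 ± 3.72 CPM in G2-CK (0.65 ± 0.14, adjusted p = 0.00364) and 18.8 ± 2.22 CPM in G2-S3 (0.86 ± 0.14, adjusted p = 0.00171). HOX5 and HOX8 did not pass the threshold in any comparison. HOX5 averaged 166 ± 4.33, 171 ± 5.15 and 171 ± 13.4 CPM in G2-CK, G2-S3 and G2-S4, and HOX8 40.5 ± 4.8, 41 ± 4.5 and 34.1 ± 2.76 CPM. Of the names too low for the list above, HOX12 and HOX21 were not tested. HOX23, a single unigene, was missing from all 3 G2-CK lists and had 0.589 CPM in G2-S3 replicate 2 and 0.631 and 1.07 CPM in G2-S4 replicates 2 and 3.

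**Figure D2:**
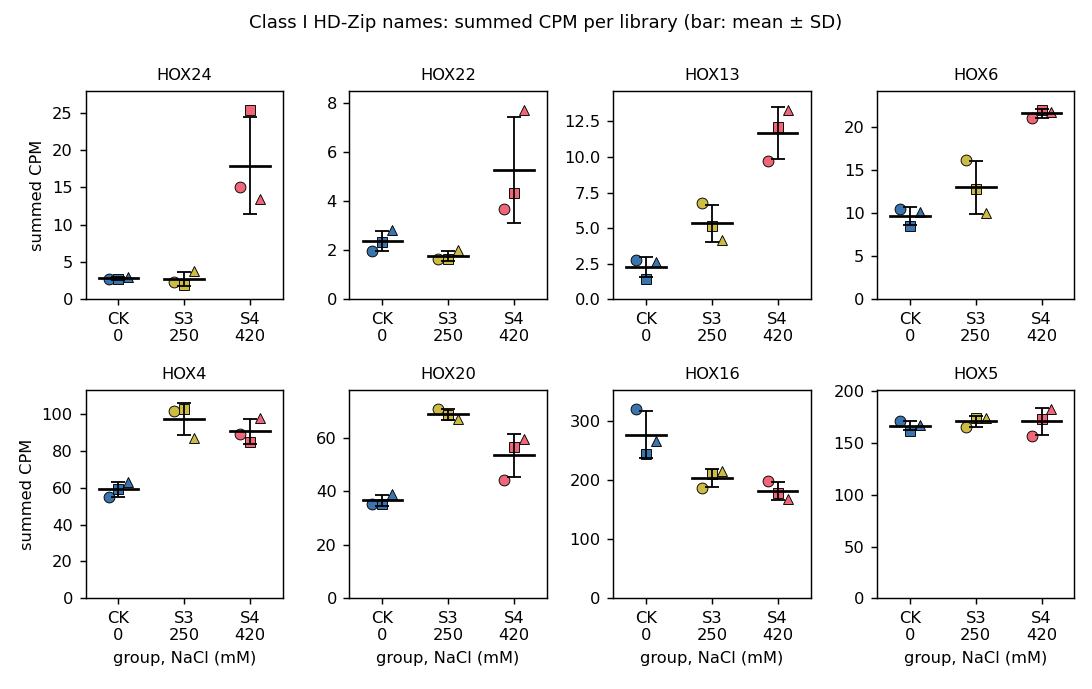
Summed CPM of 8 class I names in each library (y axes, from 0) by group and NaCl dose (x axes: G2-CK 0 mM, G2-S3 250 mM, G2-S4 420 mM). Circles, squares and triangles are replicates 1, 2 and 3, and bars are the mean ± SD. HOX24 and HOX22 are separated from both other groups in G2-S4 alone, HOX4 and HOX20 are raised at both doses, HOX16 is lowered at both, and HOX5 stays between 157 and 183 CPM.

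The abscisic acid core list (receptors, PP2C phosphatases, SAPK kinases, and enzymes that make or degrade the hormone) had 23 names higher and 2 lower of 35 tested in G2-S4 against G2-CK, where 31.6% of all names were higher and 20.0% lower. In G2-S3 against G2-CK, 9 were higher and 4 lower, against 10.4% and 5.51% of all names. The receptor PYL8 averaged 353 ± 21.2 CPM in G2-S4 and 189 ± 14.9 CPM in G2-CK (0.9 ± 0.1, adjusted p = 0.000109). It averaged 347 ± 37 CPM in G2-S3 (0.88 ± 0.1 against G2-CK, adjusted p = 0.00162), and the kinase SAPK9 had 185 ± 25.1 CPM in G2-S4, against 111 ± 3.25 CPM in G2-CK (0.74 ± 0.11, adjusted p = 0.000551). The phosphatase PP2C 50 had 177 ± 30.7 CPM in G2-S4, against 119 ± 19.9 CPM in G2-CK (0.57 ± 0.18, adjusted p = 0.0222).

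Class II was divided. HOX1, which in rice is known for a role in early vascular development, had 21.5, 14.8 and 16.2 CPM in G2-CK, 12.9, 10.6 and 16.3 CPM in G2-S3, and 6.62, 3.98 and 8.01 CPM in G2-S4. Its G2-S4 libraries lay below all others, and G2-S3 overlapped with G2-CK. The decrease was 2.82-fold against G2-CK (-1.49 ± 0.26, adjusted p = 0.00144) and 2.13-fold against G2-S3 (-1.09 ± 0.26, adjusted p = 0.0118). A copy of 1290 bp (Cluster-14027.180102) had 2.54, 2.02 and 1.65 CPM in G2-S4, against 8.63, 6.98 and 6.65 CPM in G2-CK (-1.84 ± 0.2, adjusted p = 9.43e-05). A copy of 1445 bp (Cluster-14027.163082) had 0.537 and 0.544 CPM in G2-S4 replicates 2 and 3 and no listed value in replicate 1, against 5.65, 2.94 and 3.83 CPM in G2-CK (-3.07 ± 0.48, adjusted p = 0.000962), which was the largest decrease of any called HD-Zip unigene.

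HOX7 also fell in G2-S4, to 4.92, 4.03 and 7.25 CPM, against 10.8, 10.2 and 10.7 CPM in G2-CK (-0.96 ± 0.28, adjusted p = 0.0181). This call did not hold with missing values at the limit, where the log2 fold change was -0.15, nor without G2-S4 replicate 1 or replicate 2. None of its 3 tested unigenes was called in G2-S4 against G2-CK, and the call of 1 copy (Cluster-14027.251479) in G2-S4 against G2-S3 (-1.38 ± 0.38, adjusted p = 0.0357) was lost in 8 of 12 alternatives. HOX11 was not called, with 1.66, 0.184 and 4.94 CPM in G2-S4, against 7.32, 5 and 4.68 CPM in G2-CK (-1.31 ± 0.8, adjusted p = 0.197). Its sums differed within each salt group, as G2-S3 replicate 3 had 7.56 CPM and replicates 1 and 2 had 2.26 and 2.76 CPM. These sums count missing values as 0, which bears on HOX11. A copy (Cluster-14027.145534) had 72.29 reads at 0.77 FPKM in G2-S4 replicate 3 and no listed value in replicates 1 and 2. Another (Cluster-14027.145519) was listed in G2-S3 replicate 3 alone, with 33.37 reads at 0.37 FPKM. Of the 4 tested HOX11 unigenes, 3 fell in G2-S4 against G2-CK. Among them was a copy of 2826 bp (Cluster-14027.145530) with 1.35 and 1.08 CPM in G2-S4 replicates 1 and 3 and no listed value in replicate 2. It had 3.08, 2.82 and 3.21 CPM in G2-CK (-1.48 ± 0.33, adjusted p = 0.00648), and its call was lost with missing values as 0.

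HOX19 and HOX27 rose in extreme salt. HOX19 had 15.5, 15.4 and 19 CPM in G2-S4, against 10.4, 9.2 and 10.9 CPM in G2-CK (0.71 ± 0.12, adjusted p = 0.00135), and 10.8, 11.3 and 9.67 CPM in G2-S3. HOX27 had 16.5, 8.13 and 11.8 CPM in G2-S4, against 6.92, 5.24 and 4.63 CPM in G2-CK (1.12 ± 0.25, adjusted p = 0.00494), and its range in G2-S3 (7.83 to 8.79 CPM) also lay above G2-CK without reaching the threshold (0.59 ± 0.25, adjusted p = 0.138). HOX15, whose reads came at 97.2% or more from 1 unigene (Cluster-14027.123548), averaged 13.8 ± 1.79, 13.7 ± 3.06 and 14.7 ± 0.6 CPM in G2-CK, G2-S3 and G2-S4 and passed no threshold. Among low names, HOX3 was singled out after its values were seen, as the only called name below 1 CPM. It had 1.07, 1.19 and 1.5 CPM in G2-S4, no listed value in G2-S3 replicates 1 and 2 and 0.25 CPM in replicate 3 (adjusted p = 0.0358 for G2-S4 against G2-S3). The log2 fold change depended on the missing values, with 3.82 ± 1.21 where they were set to 0 and 2.55 ± 0.31 in the unigene fit, where they were set to the limit. HOX17, HOX2 and HOX26 were missing from all 3 G2-S4 lists and had at most 0.328 CPM in any other library.

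Class III contained a name called in opposite directions at the 2 doses and a name that fell at both. ATHB-8, named after an Arabidopsis gene of the procambium and developing veins, had 2.49, 3.14 and 3.82 CPM in G2-CK, 1.36, 1.39 and 1.41 CPM in G2-S3, and 5.76, 4.36 and 5.09 CPM in G2-S4. No 2 groups overlapped, and severe salt gave the lowest values. It was 2.26-fold lower in G2-S3 than in G2-CK (-1.18 ± 0.22, adjusted p = 0.0106), 1.61-fold higher in G2-S4 than in G2-CK (0.69 ± 0.21, adjusted p = 0.021) and 3.65-fold higher in G2-S4 than in G2-S3 (1.87 ± 0.22, adjusted p = 0.000412). The increase over G2-CK was lost without G2-CK replicate 1, G2-CK replicate 2 or G2-S4 replicate 1. Neither of the 2 ATHB-8 unigenes was called in that comparison, with log2 fold changes of 0.49 and 1.19. The vascular wall markers were high in G2-S3 replicates 1 and 2 and not in replicate 3. Their part in the ATHB-8 values was not tested. ATHB-8 rested on 32 to 34 reads per library in G2-S3. Its leading copy, of 523 bp (Cluster-14027.81116), had 1.1, 1.14 and 1.04 CPM in G2-S3, against 2.26, 2.28 and 2.67 CPM in G2-CK (-1.13 ± 0.22, adjusted p = 0.0147), a call lost without G2-CK replicate 3 or G2-S3 replicate 1.

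HOX29 followed the same order of groups. Its copy Cluster-14027.81118 and the ATHB-8 copy Cluster-14027.81116 have neighbouring numbers, and whether the names share reads was not tested. HOX29 had 19.8, 26.5 and 28.4 CPM in G2-CK, 17.9, 13.9 and 19.6 CPM in G2-S3, and 59, 42.6 and 42.1 CPM in G2-S4. It was 1.92-fold higher in G2-S4 than in G2-CK (0.94 ± 0.19, adjusted p = 0.0027) and 2.8-fold higher than in G2-S3 (1.48 ± 0.19, adjusted p = 0.000599), while G2-S3 against G2-CK did not reach the threshold (-0.54 ± 0.19, adjusted p = 0.0822). Of its 6 tested unigenes, 4 rose in G2-S4 against G2-CK, and the log2 fold changes of all 6 were 0.53 to 1.14.

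HOX32 fell at both doses and HOX33 in extreme salt. HOX32 had 35.8, 35.3 and 39.1 CPM in G2-CK, 26.5, 25.7 and 26 CPM in G2-S3, and 25.2, 22.5 and 27.1 CPM in G2-S4. Both salt groups lay below G2-CK, by 1.41-fold at 250 mM (-0.49 ± 0.09, adjusted p = 0.00819) and 1.47-fold at 420 mM (-0.56 ± 0.09, adjusted p = 0.00068). Its leading copy (Cluster-14027.176534, 2304 bp) had 10.7, 7.93 and 10.3 CPM in G2-S4, against 15.1, 15.1 and 16.2 CPM in G2-CK (-0.68 ± 0.13, adjusted p = 0.0037). HOX33, whose reduction in rice is known to speed leaf senescence, had 8.17, 8.08 and 9.58 CPM in G2-S4, against 13.9, 15.7 and 13.8 CPM in G2-CK (-0.75 ± 0.12, adjusted p = 0.00104). It had 12.1, 12.2 and 9.82 CPM in G2-S3, which lay below G2-CK without reaching the threshold (-0.35 ± 0.12, adjusted p = 0.0818). The difference of G2-S4 from G2-S3 (-0.4, adjusted p = 0.0356) was lost in 5 of 11 alternatives, namely the replicate block and the leaving out of G2-S3 replicate 1 or 2 or G2-S4 replicate 1 or 2. A copy of 1361 bp (Cluster-14027.176532) fell to 0.402, 0.741 and 0.96 CPM in G2-S4, against 2.12, 1.96 and 3.03 CPM in G2-CK (-1.76 ± 0.32, adjusted p = 0.00233), and its call at 250 mM (-1.23 ± 0.31, adjusted p = 0.0443) was lost in 10 of 12 alternatives. The senescence markers STAY-GREEN and SAG39 moved in opposite directions in the same libraries, and their part in these values was not tested.

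HOX9 passed the threshold in 1 comparison and HOX10 in none. HOX9 averaged 27.9 ± 1.52 CPM in G2-S4 and 32.5 ± 0.464 CPM in G2-CK (-0.22 ± 0.08, adjusted p = 0.038), a call that was lost in 7 of 11 alternatives, among them the leaving out of any G2-CK library or of G2-S4 replicate 1 or 2. HOX10 averaged 30.8 ± 1.46 CPM in G2-S4 and 34.4 ± 0.516 CPM in G2-CK (-0.16 ± 0.1, adjusted p = 0.2). In G2-S3, HOX10 had 35.3, 42.5 and 33.2 CPM in replicates 1, 2 and 3.

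**Figure D3:**
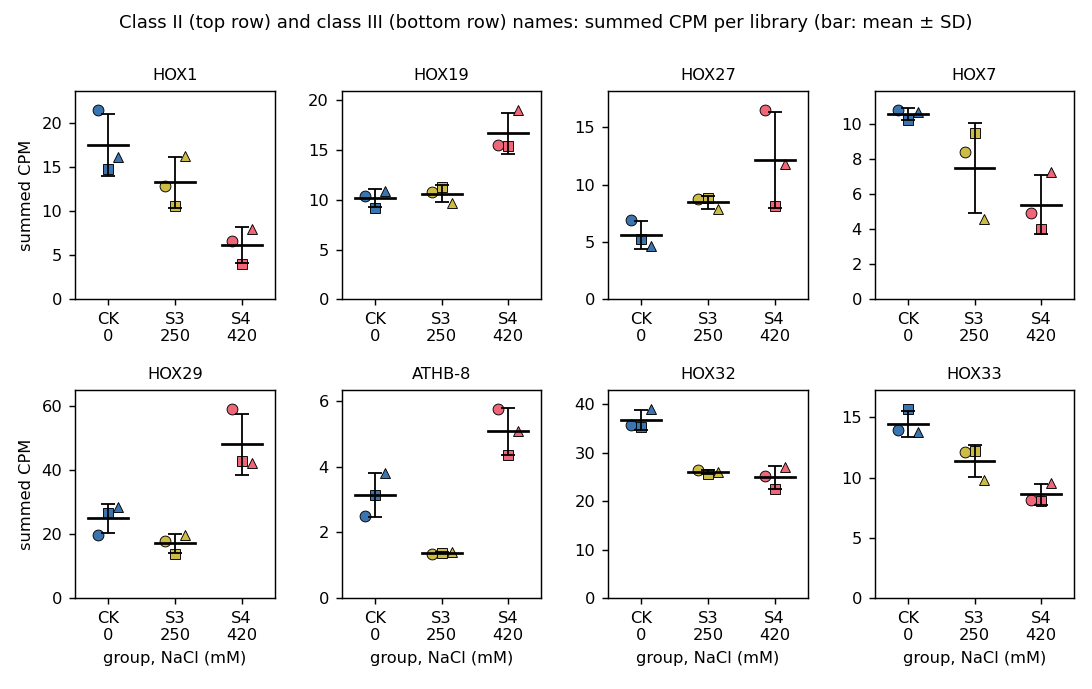
Summed CPM of 4 class II names (top row) and 4 class III names (bottom row) in each library (y axes, from 0) by group and NaCl dose (x axes). Circles, squares and triangles are replicates 1, 2 and 3, and bars are the mean ± SD. HOX29 and ATHB-8 are lowest in G2-S3 and highest in G2-S4, while HOX1 and HOX33 have their lowest values in G2-S4.

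The list of leaf polarity genes and class III partners (KANADI, YABBY, argonaute, auxin response factors and others) had 9 names higher and 3 lower of 15 tested in G2-S4 against G2-CK, beside 31.6% higher and 20.0% lower over all names. In G2-S3 against G2-CK, 4 were higher and 1 lower, beside 10.4% and 5.51%. Auxin response factor 4, which acts on the lower face of the Arabidopsis leaf, averaged 618 ± 46.9 CPM in G2-S4 and 334 ± 12.7 CPM in G2-CK (0.89 ± 0.09, adjusted p = 5.59e-05). The argonaute proteins load small RNAs, and argonaute 1D had 152 ± 7.23 CPM in G2-S4, against 101 ± 3.26 CPM in G2-CK (0.6 ± 0.07, adjusted p = 0.000202). Argonaute 1B had 162 ± 8.22 CPM in G2-S4 and 168 ± 13.3 CPM in G2-CK (-0.06 ± 0.1, adjusted p = 0.662).

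Of the 8 tested class IV names, 3 fell in extreme salt, 1 rose and 4 passed no threshold. Of all names tested, 20.0% were lower and 31.6% higher in the same comparison. ROC9 had 11.9, 13 and 10.7 CPM in G2-CK, 24.2, 25.8 and 17 CPM in G2-S3, and 54.6, 58.1 and 60.5 CPM in G2-S4. No 2 groups overlapped. It was 1.88-fold higher in G2-S3 than in G2-CK (0.91 ± 0.15, adjusted p = 0.00706), 4.86-fold higher in G2-S4 than in G2-CK (2.28 ± 0.15, adjusted p = 1.15e-05) and 2.59-fold higher in G2-S4 than in G2-S3 (1.37 ± 0.15, adjusted p = 0.00027). The reads came almost wholly from 1 unigene of 2363 bp (Cluster-14027.134737), which held 92.9% of the name's CPM in G2-CK and 98.7% in G2-S4. That unigene had 53.8, 57.5 and 59.7 CPM in G2-S4, against 11.2, 11.9 and 9.98 CPM in G2-CK (2.37 ± 0.17, adjusted p = 1.1e-05), and it was the 1 class IV unigene called higher in each of the 3 comparisons.

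ROC2 had the highest summed FPKM of the class IV names. It had 102, 88.1 and 92 CPM in G2-CK, 47.8, 37.8 and 69.3 CPM in G2-S3, and 57.6, 52 and 45.7 CPM in G2-S4, so that both salt groups lay below G2-CK. ROC2 was 1.82-fold lower in G2-S4 (-0.86 ± 0.19, adjusted p = 0.00512) and 1.82-fold lower in G2-S3 (-0.87 ± 0.19, adjusted p = 0.0192). The call at 250 mM was lost without any 1 of the G2-CK libraries or without G2-S3 replicate 1, and it was larger without replicate 3 (-1.14, adjusted p = 0.000898). Of 10 tested ROC2 unigenes, 4 fell in G2-S4 against G2-CK. The copy of 1435 bp (Cluster-14027.106372) had 8.18, 7.2 and 4.46 CPM in G2-S4, against 17.8, 16.5 and 17.6 CPM in G2-CK (-1.39 ± 0.28, adjusted p = 0.00446).

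ROC1, the founding member of the rice group, was lower in G2-S4 alone. It had 24.9, 22.8 and 20 CPM in G2-S4, against 40, 34.5 and 40 CPM in G2-CK (-0.76 ± 0.11, adjusted p = 0.000437) and 31.6, 32.6 and 37.2 CPM in G2-S3 (-0.58 ± 0.11, adjusted p = 0.00353). A copy of 874 bp (Cluster-14027.126859) had 1, 1.07 and 1.07 CPM in G2-S4, against 2.42, 2.71 and 2.63 CPM in G2-CK (-1.32 ± 0.28, adjusted p = 0.00588), and its call at 250 mM (-1.15 ± 0.28, adjusted p = 0.0387) was lost in 9 of 12 alternatives. ROC7 had 7.55 ± 1.17 CPM in G2-S4, against 12 ± 2.71 CPM in G2-CK (-0.67 ± 0.18, adjusted p = 0.0112). ROC3, ROC4, ROC5 and ROC6 did not pass the threshold in any comparison, with log2 fold changes of -0.54, -0.07, -0.15 and -0.1 in G2-S4 against G2-CK. ROC5, which in rice is known to act on bulliform cells and leaf rolling, averaged 50.9 ± 1.48 CPM in G2-S4 and 56.5 ± 8.69 CPM in G2-CK. ROC8, too low to be tested, had at most 0.396 CPM.

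In severe salt the class IV names were set apart by 1 library. G2-S3 replicate 3 was the highest of its group for 7 of 8 names and the lowest for ROC9, and its value was a median of 1.62 times the mean of replicates 1 and 2, against 0.995 times in class I, 1.14 in class II and 0.945 in class III. ROC6 had 97.4 CPM in that library and 53 and 60.7 CPM in replicates 1 and 2, where G2-CK had 60.7 to 85.5 CPM, and its leading copy (Cluster-14027.157956) 59.8 CPM and 30.9 and 34.9 CPM. ROC3 had 12.2 CPM in replicate 3 and 6.03 and 6.94 CPM in the others, where G2-CK had 7.92 to 9.88 CPM. Without replicate 3 the log2 fold changes of G2-S3 against G2-CK were -0.31 for ROC6, -0.35 for ROC5, -0.49 for ROC3 and -0.4 for ROC4 (adjusted p = 0.179, 0.0612, 0.0881 and 0.414), and with it -0.0, -0.08, -0.12 and -0.03. The vascular wall markers, at 4.85 CPM in replicate 3 and 107 and 161 CPM in replicates 1 and 2, separated the same libraries, and their part in the class IV values was not tested.

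**Figure D4:**
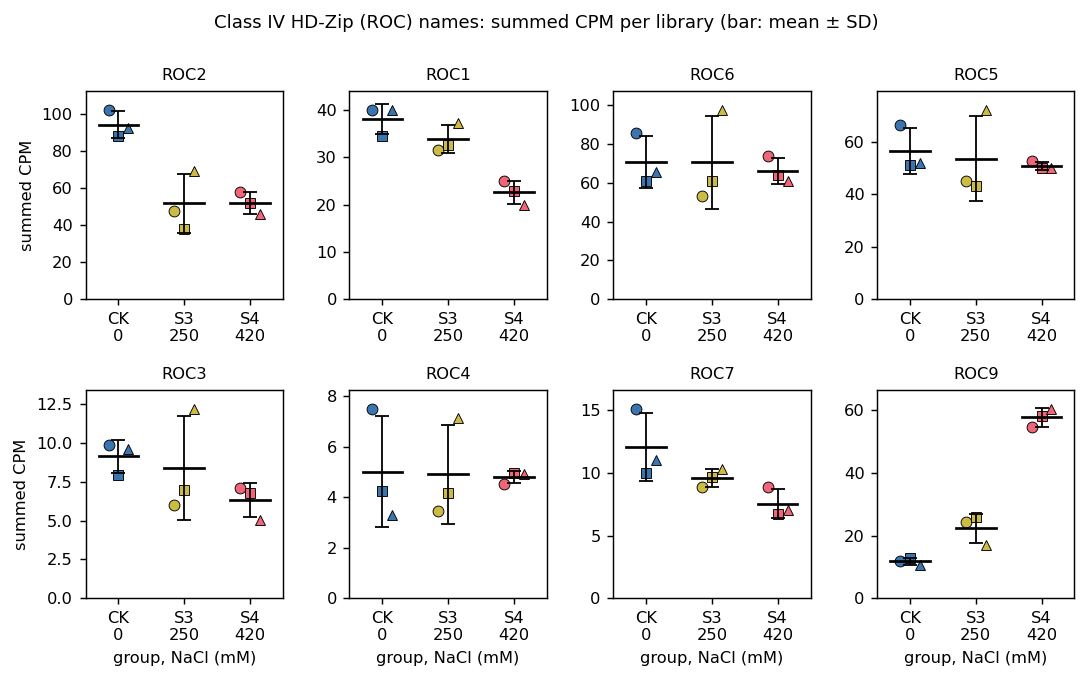
Summed CPM of the 8 class IV names averaging 1 CPM or more in each library (y axes, from 0) by group and NaCl dose (x axes). Circles, squares and triangles are replicates 1, 2 and 3, and bars are the mean ± SD. The triangle of G2-S3 (replicate 3) lies above the circle and the square of that group in all panels except ROC9, in which the values increase with dose.

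Among genes of cuticle lipids, a process with which class IV proteins are associated, 12 names were lower and 4 higher of 20 tested in G2-S4 against G2-CK, where 20.0% of all names were lower and 31.6% higher. In G2-S3 against G2-CK, 1 was higher and 1 lower, beside 10.4% and 5.51% of all names. 3-ketoacyl-CoA synthases elongate the fatty acids of waxes, and synthase 10 had 48 ± 7.79 CPM in G2-S4, against 107 ± 27.5 CPM in G2-CK (-1.15 ± 0.21, adjusted p = 0.00166). Synthase 6 had 65.8 ± 14.6 CPM in G2-S4, against 93.8 ± 13.6 CPM in G2-CK (-0.51 ± 0.18, adjusted p = 0.0364). The oxoacyl-CoA reductase of the same elongation complex rose, with 80.3 ± 12.2 CPM in G2-S4 and 50.8 ± 3.63 CPM in G2-CK (0.66 ± 0.11, adjusted p = 0.000963).

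The sum over a name could conceal copies that moved apart. Of 22 names with at least 2 called unigenes in G2-S4 against G2-CK, 5 had calls in both directions, namely HOX5, HOX8, HOX19, HOX27 and HOX10. The copies described for them were, apart from the leading HOX5 copy and the 2 of HOX8, chosen after their values were seen. HOX5, whose sum passed no threshold, had a copy of 1799 bp (Cluster-14027.158428) with 19.6, 24.1 and 22.9 CPM in G2-S4, against 16.9, 17.4 and 17.1 CPM in G2-CK (0.37 ± 0.11, adjusted p = 0.0311). A copy of 1573 bp (Cluster-14027.158460) had 1.81, 2.23 and 2.83 CPM in G2-S4, against 4.99, 3.92 and 4.45 CPM in G2-CK (-0.96 ± 0.22, adjusted p = 0.00903). The leading copy (Cluster-14027.158462), with 60% of the name's CPM in G2-S4 and 55.8% in G2-CK, had 0.14 ± 0.11 (adjusted p = 0.354).

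HOX10 was similar, with 2 copies higher and 2 lower. Its leading copy (Cluster-14027.125684) had 7.13, 7.95 and 9.06 CPM in G2-S4, against 11.6, 13.9 and 11.6 CPM in G2-CK (-0.62 ± 0.18, adjusted p = 0.0265). A shorter copy of 950 bp (Cluster-14027.197580) had 5.17, 5.2 and 4.75 CPM in G2-S4, against 2.59, 2.4 and 3.16 CPM in G2-CK (0.9 ± 0.22, adjusted p = 0.0117). In HOX19, a copy of 1277 bp (Cluster-14027.133246) had 4.94, 5.99 and 5.58 CPM in G2-S4, against 1.59, 1.65 and 1.59 CPM in G2-CK (1.77 ± 0.18, adjusted p = 8.37e-05), and a copy of 1393 bp (Cluster-14027.182794) had -1.22 ± 0.29 (adjusted p = 0.0101). HOX8 had 17 unigenes, and among the 13 tested the log2 fold changes ran from -1.36 to 1.91. The 2 ends were a copy of 2457 bp (Cluster-14027.129882) with 2.21, 1.89 and 1.88 CPM in G2-S4, against 4.68, 5.49 and 5.08 CPM in G2-CK, and a copy of 651 bp (Cluster-14027.230000) with 1.73, 1.13 and 1.26 CPM in G2-S4, against 0.504, 0.419 and 0.169 CPM in G2-CK. The tested copies of HOX13, HOX24, HOX6 and HOX4, in contrast, all gave log2 fold changes above 0 in G2-S4 against G2-CK. Those of HOX22, HOX29 and ATHB-8 did so too.

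**Figure D5:**
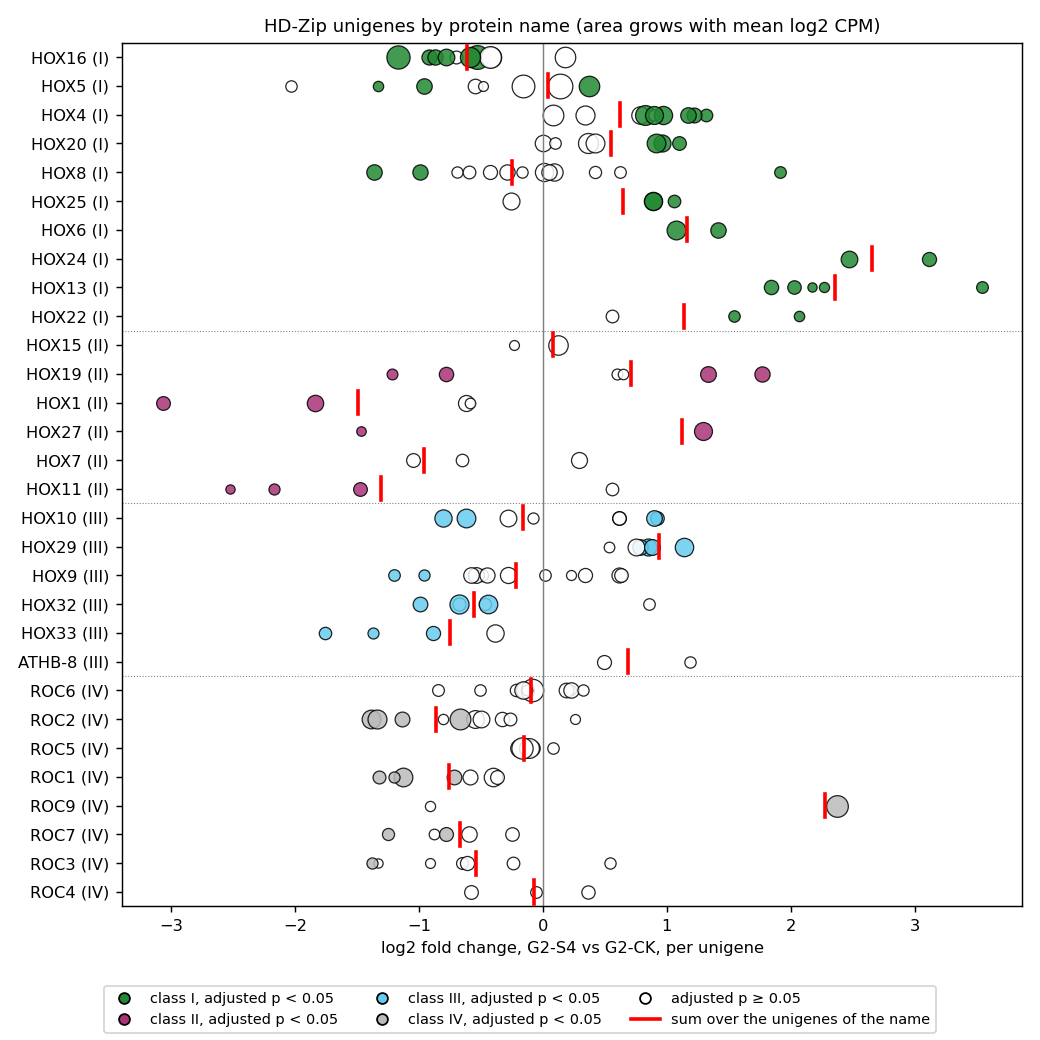
Log2 fold changes of single HD-Zip unigenes in G2-S4 over G2-CK (x axis), with a row for each of the 30 names averaging 1 CPM or more, ordered by class. The area of a circle grows with the mean log2 CPM of the unigene, filled circles have an adjusted p under 0.05 over all unigenes, and the red bar is the fold change of the summed reads. HOX5, HOX8, HOX10, HOX19 and HOX27 have filled circles on both sides of 0, and all 5 circles of HOX13 lie between 1.84 and 3.54.

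Across the doses, the 32 tested names showed 11 patterns of calls, 5 of them held by 1 name each (HOX20, HOX4, ATHB-8, HOX27 and HOX3). Of the names, 2 (HOX13 and ROC9) were called higher in all 3 comparisons, and 6 (HOX25, HOX6, HOX24, HOX22, HOX19 and HOX29) were higher in G2-S4 than in both other groups with no call between G2-S3 and G2-CK. In the opposite direction, 3 (HOX1, HOX33 and ROC1) were lower in G2-S4 than in both other groups with no call at 250 mM. Another 3 (HOX16, HOX32 and ROC2) were lower at both doses with no call between the doses. HOX7, HOX9 and ROC7 were called lower in G2-S4 against G2-CK alone, which is no test of a difference between the doses. ATHB-8 alone was called in opposite directions at the 2 doses, and 10 names were called in no comparison. Of the other homeodomain families (knotted-1-like, BEL1-like, zinc-finger homeodomain and WUSCHEL-related), 8 names were higher and 4 lower of 25 tested in G2-S4 against G2-CK, where 31.6% of all names were higher and 20.0% lower. The most abundant of these, BEL1-like 1, had 2150 ± 43.3 CPM in G2-S4, against 1710 ± 281 CPM in G2-CK (0.33 ± 0.12, adjusted p = 0.0466).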

How the data were processed

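RNA of G2 leaves was sequenced in 9 unstranded libraries, grouped by the sample labels. The estimated counts (expected counts of RSEM) were deposited by the authors, who assembled all reads de novo with Trinity and Corset and aligned each library to the unigenes with bowtie2. The FPKM values, lengths and best database hits were deposited by the authors beside them. Each list ends at 0.3 FPKM, by which 36.8% of the values are missing.

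Counts were rounded. A missing value was set to its limit in reads (median 2.11) for single unigenes and to 0 in sums over a protein name. The test was edgeR 4.0.16 in R 4.3.3 (filterByExpr with a minimum count of 10, TMM factors of 0.94 to 1.06, group means over 9 libraries, quasi-likelihood F-test), adjusted by Benjamini-Hochberg over all unigenes or all names, with a threshold of 0.05. A log2 fold change is given ± SE and a CPM or FPKM ± SD. The SE was derived from the test, as the absolute log2 fold change divided by the square root of its F statistic. CPM use the estimated library totals and the TMM factors. Alternatives were RLE factors, DESeq2 1.42.0, no low-count filter, other values for missing entries, a replicate block, leaving out each library and, added after the data were seen, sums without unigenes under 400 bp. Classes follow the protein name. Named were, per comparison, the 4 largest increases and 4 largest decreases among called unigenes with a mean log2 CPM of at least 0, the leading unigene of each class, and names averaging 1 CPM or more. Members and lists were chosen with earlier results of these data known. No sequences or coordinates were used here.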

Additional observations from a re-analysis of the deposited data

Results flagged for a closer look

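In 5 of the 30 names averaging 1 CPM or more, the fold changes against G2-CK had opposite signs at the 2 doses while G2-S4 and G2-S3 differed by the edgeR test. ATHB-8 had a log2 fold change of 1.87 between G2-S4 and G2-S3 (0.69 in G2-S4 and -1.18 in G2-S3 against G2-CK, both past the threshold). Its call in G2-S4 against G2-CK was lost in 3 of 11 alternatives, and neither of its 2 unigenes was called there. HOX29 had 1.48 between the doses (0.94 in G2-S4 and -0.54 in G2-S3), HOX22 1.58 (1.14 and -0.43), HOX25 0.86 (0.65 and -0.22) and HOX24 2.72 (2.66 and -0.06). In these 4 names the value of G2-S3 against G2-CK did not pass the threshold, so that a decrease at 250 mM was not shown. With 3 libraries in a group, no single library was tested for being an outlier.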

How the results depend on the processing

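The number of HD-Zip unigenes called in G2-S3 against G2-CK, 23, depended most on the processing. It was 15 with missing values as 0, 12 with no low-count filter and 14 with a replicate block, and leaving out 1 library gave 7 to 31. For names in this comparison, 8, leaving out 1 library gave 5 to 9. The other 4 totals of higher and lower calls stayed within 1.5 times of their value in all alternatives run, with 57 to 63 unigenes and 19 to 22 names in G2-S4 against G2-CK and 25 to 31 unigenes and 11 to 16 names in G2-S4 against G2-S3 when 1 library was left out. With no low-count filter the lower unigenes numbered 23 in place of 39 at 420 mM and 8 in place of 13 between the doses. Leaving out a library also leaves fewer samples. No called fold change of a named unigene or name turned its sign under an alternative, and some that passed no threshold did. The calls kept in all alternatives were 18 of 21 names at 420 mM, 5 of 8 at 250 mM and 11 of 13 names between the doses, and 15 of 16, 2 of 9 and 6 of 10 named unigenes in the same order. With DESeq2 the unigenes called were 30 at 250 mM and 75 at 420 mM. The replicate numbers were not shown to pair the libraries, since the deviations of same-numbered libraries correlated at -0.11 to 0.039 over 9 pairs. The block gave 64 unigenes and 20 names in G2-S4 against G2-CK, 7 names in G2-S3 against G2-CK, and 35 unigenes and 12 names in G2-S4 against G2-S3. Names near the end of the lists, such as HOX3 and HOX23, are limited by depth.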
